A study of Populus tremula x Populus alba with 4 samples.

Results

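Transcripts of 3 genes of salicinoid synthesis were examined in the bark of hybrid poplar. They were picked out by gene ID, with no cut on measured values, but earlier results of these data were known at the time. They are 3 of the 41335 genes listed in each table. UGT71L1 (Potri.016G014500.1) is a glucosyltransferase, BEBT (Potri.013G074500.1, also called ACT47) is benzoyl-CoA:benzyl alcohol O-benzoyltransferase, and SABT (Potri.019G043600.1, also called ACT49) is benzoyl-CoA:salicyl alcohol O-benzoyltransferase. The deposited tables pair no ID with a name, so these names rest on the published gene models and could not be checked against an annotation here. All 3 genes passed the filter on low counts, as did 30975 of the 41335 genes.

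Bark RNA was sequenced in 4 libraries of INRA 717-1B4, an easily transformed clone of the hybrid Populus tremula x Populus alba. Wild type gave 2 libraries and plants described as MIR15 transgenic gave 2, which the submitters call biological replicates. Both genotypes were raised in sterile culture, with kanamycin where it was required, and then grown in soil in a growth chamber. The age of the plants, the promoter and target of the MIR15 construct, and whether its 2 samples came from 1 transgenic line or from several are not stated in the labels used here. Because no ID carries a name, bark, phloem and xylem markers could not be looked up, and the tissue label was not checked.

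Salicinoids, such as salicin, salicortin and tremulacin, are phenolic glycosides typical of poplars and willows, where they deter herbivores and can accumulate to high levels in bark and leaves. They derive from the phenylpropanoid pathway: phenylalanine gives cinnamate, from which benzoyl-CoA can be formed. In enzyme assays, BEBT joins the benzoyl group to benzyl alcohol and SABT joins it to salicyl alcohol, giving benzyl benzoate and salicyl benzoate. UGT71L1 adds glucose to salicyl benzoate, and poplars in which it was knocked out made far less salicortin.

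Messages of all 3 enzymes were present in every bark library, and their levels set 1 wild-type library apart more than they set the genotypes apart. In wild-type replicate 2 each gene was at less than 45% of its highest library, namely 37.3% for UGT71L1, 44.8% for BEBT and 36.2% for SABT. None of the 3 passed the edgeR test of MIR15 against wild type. Levels are given in CPM, the total gene reads of a gene scaled to the library's total of such reads (counts per 1000000). Longer transcripts yield more reads and no lengths were used here, so the levels of the 3 genes are not compared with each other.

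Of the benzoyltransferases, BEBT, the benzyl benzoate enzyme, had 414 CPM and 185 CPM in wild-type replicates 1 and 2, and 339 CPM in each of the MIR15 libraries. Both MIR15 libraries therefore lay between the wild-type libraries, closer to the higher one. These levels rest on 34280 and 14290 reads in wild type and on 23192 and 23677 reads in MIR15. The wild-type mean was 299.8 ± 162 CPM and the MIR15 mean 339 ± 0.473 CPM (SD, n = 2 each).

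SABT, the salicyl benzoate enzyme, had 47.9 CPM and 20.3 CPM in wild-type replicates 1 and 2, and 41.0 CPM and 56.1 CPM in MIR15 replicates 1 and 2. Here MIR15 replicate 2 was the highest library and wild-type replicate 2 again the lowest, and the genotypes overlapped. It had the fewest reads of the 3, 3968 and 1566 in wild type and 2806 and 3915 in MIR15. Means were 34.1 ± 19.5 CPM for wild type and 48.6 ± 10.7 CPM for MIR15 (SD, n = 2 each).

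UGT71L1, which glucosylates the benzoylated intermediate, had 772 CPM and 288 CPM in wild-type replicates 1 and 2, and 620 CPM and 532 CPM in MIR15 replicates 1 and 2. Both MIR15 libraries lay inside the wild-type range. The reads behind these levels numbered 63897 and 22186 in wild type and 42442 and 37099 in MIR15. The wild-type libraries averaged 529.9 ± 342 CPM and the MIR15 libraries 576 ± 62.3 CPM (SD, n = 2 each).

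**Figure D1:**
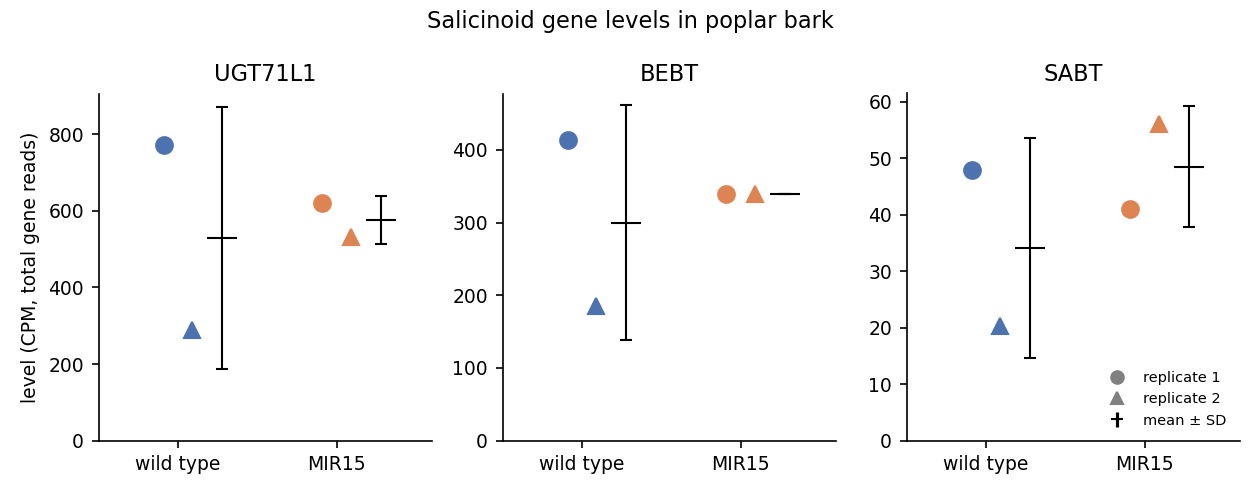
Level of each salicinoid gene in CPM (linear axes from 0) by genotype; circles are replicate 1, triangles replicate 2, and black marks show the mean ± SD of 2 libraries. Wild-type replicate 2 is the lowest library for every gene, and the genotypes overlap for every gene.

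Nearly all of these reads matched a single gene. For UGT71L1, 1 to 2 reads per library matched elsewhere, and for SABT 0 to 2 did. For BEBT the share was between 0.172% and 0.525% of reads. Levels from unique reads alone therefore had the same order over the libraries, for example 825, 307, 655 and 564 CPM for UGT71L1 in wild-type replicates 1 and 2 and MIR15 replicates 1 and 2.

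The wild-type libraries differed 2.68-fold for UGT71L1, 2.23-fold for BEBT and 2.36-fold for SABT, with replicate 1 higher each time. On the log2 scale these differences were 1.42 for UGT71L1, 1.16 for BEBT and 1.24 for SABT. Most genes were much more alike between these libraries: over the 20097 tested genes that averaged 5 CPM or more, the median absolute log2 difference was 0.18 in wild type and 0.19 in MIR15. The wild-type difference was larger in size than that of 99.2% of these genes for UGT71L1, of 98.5% for BEBT and of 98.8% for SABT. Wild-type replicate 1 exceeded replicate 2 by more than 2-fold in 192 of the 20097 genes, or 0.955%, and all 3 salicinoid genes were among the 192. In 182 of the 192 genes both MIR15 libraries lay above wild-type replicate 2, the 3 salicinoid genes included. The 192 were picked for a low wild-type replicate 2, so that choice largely sets this count. Over all 20097 genes, wild-type replicate 2 was the lowest library in 26.4%.

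For the salicinoid genes, the MIR15 libraries were closer together. BEBT differed 1.00-fold between them, UGT71L1 was 1.17-fold higher in replicate 1, and SABT was 1.37-fold higher in replicate 2. The difference of SABT exceeded that of 86.1% of the 20097 genes in size, that of UGT71L1 exceeded 55.9%, and that of BEBT 0.722%. In a bulk extract, fewer cells that express a gene and less of its RNA per cell cannot be told apart.

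**Figure D2:**
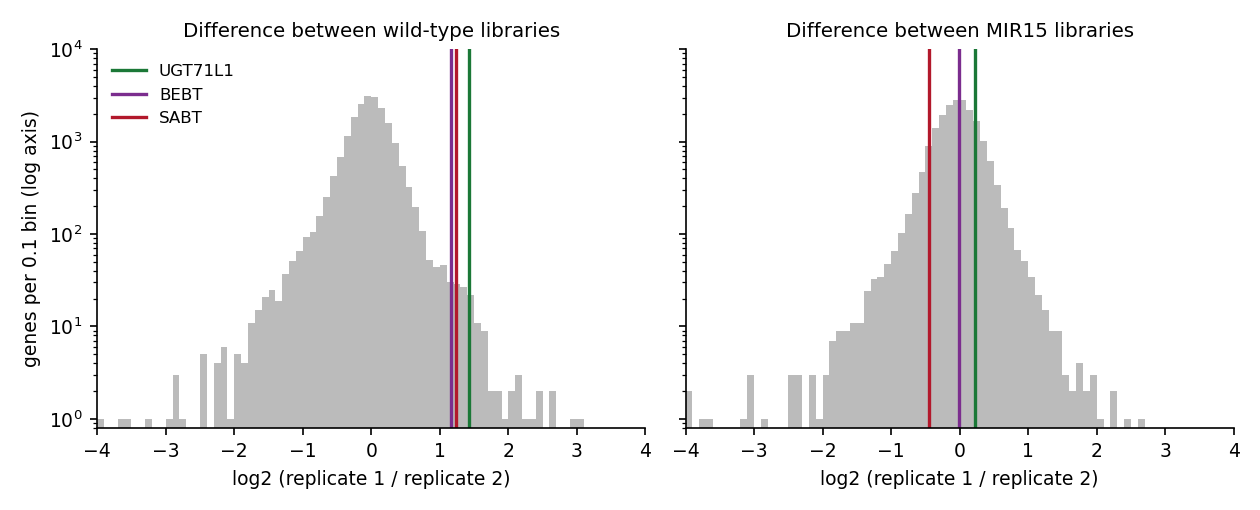
Histograms of the log2 difference between replicates 1 and 2 for 20097 genes averaging 5 CPM or more, in wild type (left) and MIR15 (right), with gene counts on a log axis; coloured lines mark the salicinoid genes. In wild type all 3 lines stand in the right tail, from 1.16 to 1.42, and in MIR15 they lie between -0.45 and 0.22.

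Against that spread, no difference between the genotypes could be shown for any of the 3 genes. For UGT71L1 the log2 fold change of MIR15 over wild type was 0.13 ± 0.42 (SE), with a 95% interval from -0.84 to 1.11 and an adjusted p of 1.00 by the quasi-likelihood test of edgeR. The interval runs from 0.557-fold to 2.16-fold, so neither a modest fall nor a doubling is outside it. For BEBT the log2 fold change was 0.19 ± 0.35 (SE), with an interval from -0.62 to 1.00 and an adjusted p of 1.00 in edgeR. For SABT it was 0.52 ± 0.37 (SE), with an interval from -0.35 to 1.39 and an adjusted p of 1.00 in edgeR; the unadjusted values were 0.758, 0.599 and 0.204 for UGT71L1, BEBT and SABT. Over all genes tested edgeR called 1 of 30975, or 0.00323%, and an unadjusted p under 0.05 was reached by 764 genes, or 2.47%. None of the 3 was called with DESeq2, which called 0.0416% of genes, with the replicate number as a block, which called 0.387%, or without wild-type replicate 1, where 0.0252% were called. The estimated biological coefficient of variation was 0.292 for UGT71L1, 0.250 for BEBT and 0.268 for SABT, against a median of 0.154 over the 20097 genes.

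The fold changes depended on which wild-type library was used, and for UGT71L1 and BEBT so did their direction. Without wild-type replicate 2, the log2 fold change was -0.42 for UGT71L1, -0.28 for BEBT and 0.02 for SABT (edgeR adjusted p = 1.00 for each). Without wild-type replicate 1 it was 1.04, 0.91 and 1.29 in the same order, with edgeR adjusted p of 0.202, 0.243 and 0.147. The unadjusted p was then 0.00112, 0.00179 and 3.81e-04, in a fit where 6.35% of all genes fell under 0.05 before adjustment. That fit takes the lone wild-type sample to vary like the MIR15 samples. Measured singly, MIR15 replicates 1 and 2 had 2.15 and 1.85 times the UGT71L1 level of wild-type replicate 2, and 0.803 and 0.689 times that of wild-type replicate 1. For SABT these ratios were 2.02 and 2.76 against wild-type replicate 2, and 0.855 and 1.17 against wild-type replicate 1.

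**Figure D3:**
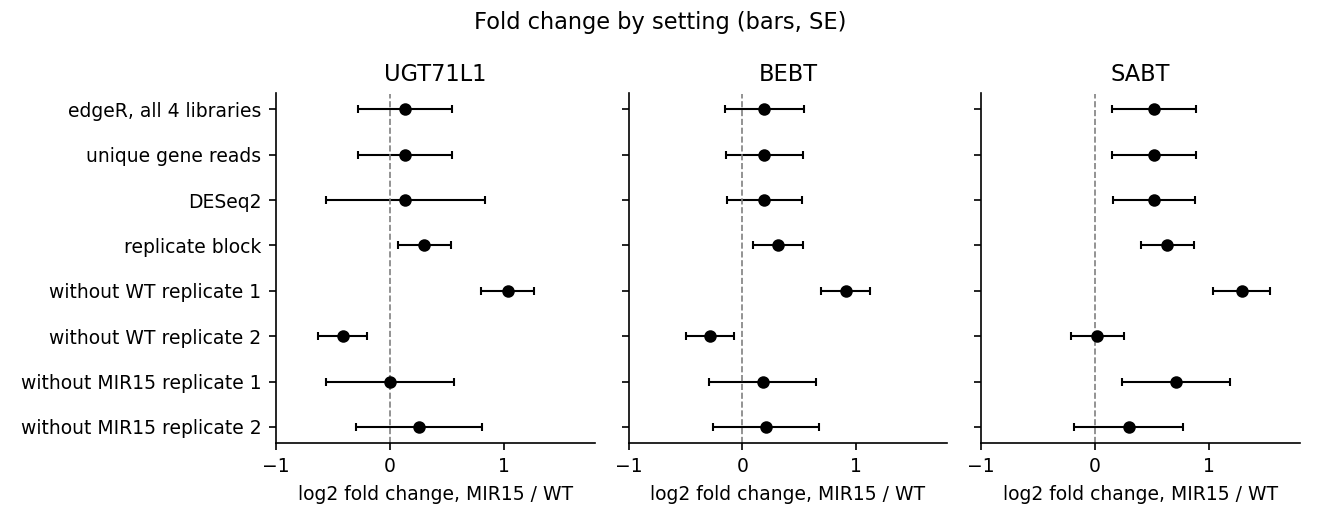
Log2 fold change of MIR15 over wild type with its SE for each salicinoid gene, with all 4 libraries in edgeR, with unique reads, with DESeq2, with the replicate number as a block and with each library left out. Leaving out wild-type replicate 1 moves all 3 genes to between 0.91 and 1.29, and leaving out wild-type replicate 2 moves them to between -0.42 and 0.02.

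Over all libraries together, the ratios between the genes were steadier than their levels, each gene being lowest in wild-type replicate 2. Between the MIR15 libraries alone, no ratio was clearly steadier than the levels that form it. A ratio of CPM values within a library does not depend on how libraries are scaled, though its size also reflects transcript lengths. UGT71L1 over BEBT was 1.86 and 1.55 in wild-type replicates 1 and 2, and 1.83 and 1.57 in MIR15 replicates 1 and 2. The highest of these ratios was 1.20 times the lowest, and both replicate 1 libraries lay above both replicate 2 libraries. The genotypes overlapped: the log2 ratio was 0.77 ± 0.19 in wild type and 0.76 ± 0.16 in MIR15 (SD, n = 2 each; exact permutation p = 1.00, two-sided).

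BEBT over SABT was 8.64 and 9.13 in wild-type replicates 1 and 2, and 8.27 and 6.05 in MIR15 replicates 1 and 2. Both MIR15 ratios lay below both wild-type ratios, with MIR15 replicate 2 farthest away. The log2 ratio was 3.15 ± 0.06 in wild type and 2.82 ± 0.32 in MIR15 (SD, n = 2 each), a difference of -0.33. The exact two-sided permutation p was 0.33, the smallest that 2 against 2 libraries allow. Groups that do not overlap are common here: the levels of 25.1% of the 30975 tested genes do not overlap between the genotypes, and none of the 3 salicinoid genes is among them. UGT71L1 over SABT was 16.1, 14.2, 15.1 and 9.48 in wild-type replicates 1 and 2 and MIR15 replicates 1 and 2, so it was MIR15 replicate 2 that stood lowest in both ratios with SABT. Its log2 difference between genotypes was -0.34 (exact permutation p = 0.667, two-sided).

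Other genes followed the same course over the libraries. Likeness was measured as the root-mean-square difference of log2 CPM after centring each gene on its own mean over the 4 libraries; smaller is more alike, and the median over 20096 genes was 0.55 for UGT71L1, 0.46 for BEBT and 0.58 for SABT. BEBT stood 0.12 from UGT71L1 and was its 44th most alike gene, while UGT71L1 was the 64th for BEBT. SABT stood 0.30 from UGT71L1 (366th) and 0.23 from BEBT (399th). For SABT in turn, BEBT was the 45th most alike gene and UGT71L1 the 185th. BEBT was 12550th for SABT without wild-type replicate 2, and 110th without wild-type replicate 1. Leaving out wild-type replicate 2, the lowest library, puts BEBT 723rd for UGT71L1 and SABT 17073rd. Without wild-type replicate 1 they were 99th and 997th.

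The gene most like BEBT, among 20096, was the one just before it in ID order, Potri.013G074400.1, with a distance of 0.0152. It had 22.8 and 10.3 CPM in wild-type replicates 1 and 2, and 18.5 and 18.4 CPM in MIR15 replicates 1 and 2. Like BEBT, it was lowest in wild-type replicate 2 and nearly level in MIR15. Multiply matching reads made up 30.5% of its total, and in unique reads alone its distance from BEBT was 0.0456, the 8th smallest. Whether the 2 rows share sequence was not tested. The next most alike were Potri.004G074600.1, at 0.0196, and Potri.016G091100.1, at 0.0311. The latter ID is one of those listed for phenylalanine ammonia-lyase, and its level was 921, 432, 744 and 762 CPM in wild-type replicates 1 and 2 and MIR15 replicates 1 and 2.

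For UGT71L1 the most alike genes were Potri.003G142300.1 (0.0353), Potri.016G010900.1 (0.0409) and Potri.008G116500.1 (0.0448). The third had 105 and 37.0 CPM in wild-type replicates 1 and 2, and 80.3 and 73.7 CPM in MIR15 replicates 1 and 2, and none of its reads matched more than 1 place. For SABT they were Potri.T088800.1 (0.0493), Potri.019G038300.1 (0.0605) and Potri.017G108400.1 (0.0682), which have 41.4%, 25.7% and 64.8% of reads that matched more than 1 place. All 9 of these genes share the low level of wild-type replicate 2, which their choice by likeness largely sets. Wild-type replicate 1 exceeded replicate 2 between 2.13-fold and 2.83-fold in them. With wild-type replicate 2 left out, their ranks by likeness ran from 6 to 556. The tables do not say what products these IDs encode, and edgeR gave each an adjusted p of 1.00.

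**Figure D4:**
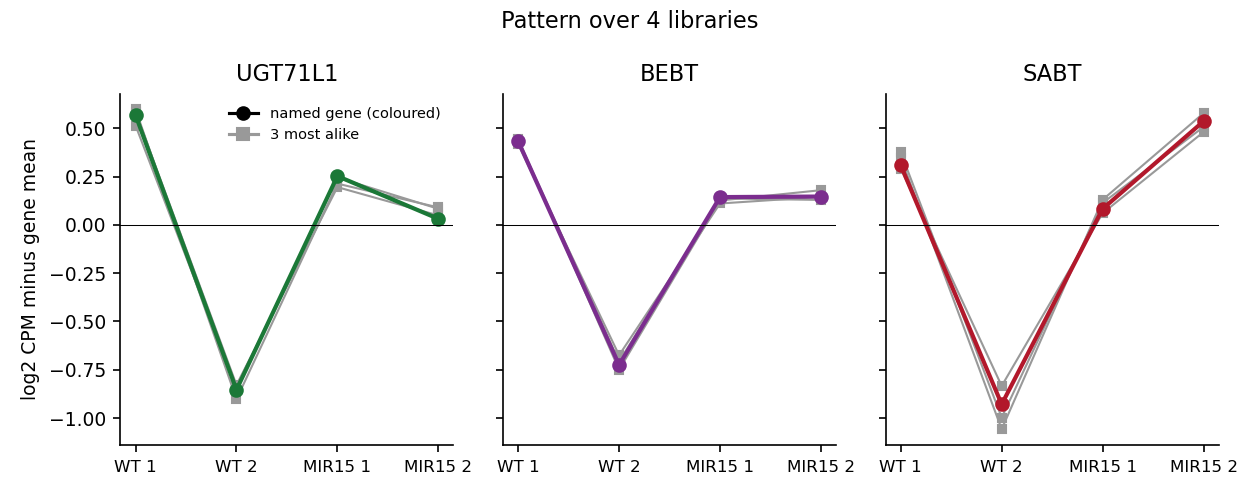
Log2 CPM of each salicinoid gene (colour) and of its 3 most alike genes (grey) in the 4 libraries, each centred on its own mean. All lines dip in wild-type replicate 2, and the SABT lines alone peak in MIR15 replicate 2.

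Upstream of the benzoyl donor, phenylalanine ammonia-lyase (PAL) makes cinnamate and cinnamate 4-hydroxylase (C4H) draws it toward lignin precursors and flavonoids. The list for these steps held 8 IDs taken from general knowledge of poplar genes, 5 for PAL and 3 for C4H, and no annotation was at hand to check them. All 8 were tested, and edgeR and DESeq2 each called 0. Their log2 fold changes ran from -0.25 to 0.17, 4 above 0 and 4 below, with a median of -0.02, beside a median of -0.0008 over all genes tested. The list's median was 0.23 without wild-type replicate 1, -0.22 without wild-type replicate 2, -0.05 without MIR15 replicate 1 and 0.09 without MIR15 replicate 2. None had an unadjusted p under 0.05 with either tool. Wild-type replicate 1 exceeded replicate 2 for 7 of the 8, by a median log2 difference of 0.41, smaller than in any of the 3 salicinoid genes. The one closest to them in this respect was Potri.016G091100.1, at 2.13-fold.

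The ID with the most reads on that list, Potri.006G126800.1, had 2591 and 1669 CPM in wild-type replicates 1 and 2, and 2303 and 2435 CPM in MIR15 replicates 1 and 2. Its MIR15 libraries thus also lay between the wild-type libraries. The ID with the smallest p, Potri.018G146100.1, was listed for C4H and averaged 4.10 ± 0.474 CPM in the wild-type libraries and 3.39 ± 0.638 CPM in the MIR15 libraries (SD, n = 2 each; edgeR adjusted p = 1.00). The peroxisomal steps from cinnamate to benzoyl-CoA and the close relatives of the 3 enzymes were to be found by description or protein sequence and are not analysed here.

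Genes beside the salicinoid genes were examined for the same gap between the wild-type libraries. The 10 rows before and the 10 after each salicinoid gene in ID order were taken as its neighbours. Here 0.1 CPM was added to each level. None of the 16 tested neighbours of UGT71L1 was then more than 2-fold higher in wild-type replicate 1. Their log2 differences ran from -0.51 to 0.75. The largest, in Potri.016G015300.1, rests on only 0.266 and 0.117 CPM in wild-type replicates 1 and 2. Without the added 0.1 CPM these levels are more than 2-fold apart. With it, none of the 15 tested neighbours of SABT was more than 2-fold higher either, with a range from -0.80 to 0.60. Among the 17 tested neighbours of BEBT, 1 was, namely Potri.013G074400.1, with a log2 difference of 1.14. With 0.1 CPM added, this makes 1 of 48 neighbours, beside 0.955% of the genes averaging 5 CPM or more. The neighbours did not have to meet that minimum.

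Between genotypes, edgeR and DESeq2 each called 0 of these 48 neighbours. An unadjusted p under 0.05 was reached by 4 of them in edgeR, all beside BEBT, by 6 in DESeq2 and by 7 with the replicate block. Over all genes these shares were 2.47% in edgeR, 2.25% in DESeq2 and 5.03% with the block. The median log2 fold change was 0.06 for the neighbours of UGT71L1, 0.10 for those of SABT and -0.15 for those of BEBT, where 12 of 17 were below 0. Without wild-type replicate 1 these medians were 0.22, 0.20 and -0.40, and without wild-type replicate 2 they were 0.04, 0.08 and -0.30. Without MIR15 replicate 1 they were -0.0047, 0.06 and -0.21, and without MIR15 replicate 2 they were 0.14, 0.18 and -0.32. Restricted to genes averaging 5 CPM or more, the median beside BEBT was -0.0093. The first stretch that follows BEBT, from Potri.013G074700.1 to Potri.013G075200.1, was picked out after its values were seen. Its 6 genes had log2 fold changes from -2.01 to -0.83, with mean levels from 0.544 to 5.61 CPM, and their genotypes did not overlap, as in 25.1% of all genes tested. In 5 of the 6, MIR15 replicate 1 was the lower MIR15 library, while the wild-type libraries differed by at most 0.18 on the log2 scale. BEBT did not follow this stretch, with a log2 fold change of 0.19 and no gap between the MIR15 libraries. The 10 rows after UGT71L1 begin a stretch, from Potri.016G014600.1 to Potri.016G017400.1, that was itself picked out from these data for its higher values in MIR15. Its 19 genes averaging 1 CPM or more had a median log2 fold change of 0.52, which that choice sets, and edgeR and DESeq2 each called 0 of them, with 3 at an unadjusted p under 0.05 in each and 8 with the replicate block. The 9 tested rows that fall within 10 of UGT71L1 had a median of 0.06 and ran from -0.81, in a gene at 0.875 CPM, to 0.41, beside 0.13 for UGT71L1 itself.

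**Figure D5:**
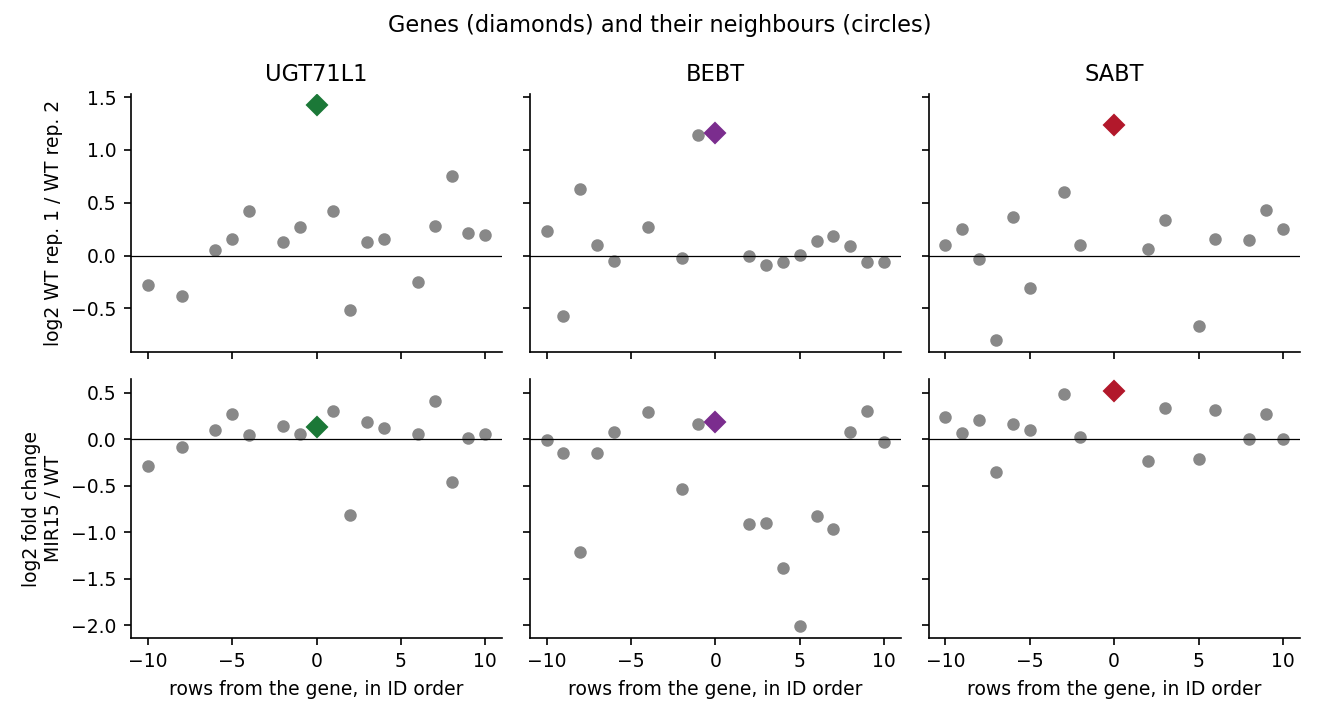
Tested genes within 10 rows of each salicinoid gene in ID order (circles) and the gene itself (diamond). The top row shows the log2 difference between wild-type replicates 1 and 2, with 0.1 CPM added to each level. The bottom row shows the log2 fold change of MIR15 over wild type. In the top row every diamond stands above the circles of its panel, the closest pair being BEBT at 1.16 and the gene just before it at 1.14.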

How the data were processed

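The authors deposited 3 values per gene and library. Per the file headers these are unique gene reads and total gene reads, which are counts made with CLC, and a DESeq normalised signal. The signal is proportional to total gene reads in each library, by a factor of 0.898 to 1.10, and was used for this check alone. Aligner settings, genome build and annotation are not stated in the sources used here. Sample titles gave groups and replicate numbers, while the deposited MIR15 columns carry other numbers. The replicate block and the comparison of same-numbered libraries use the title numbers. Neither was repeated with the column numbers.

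Total gene reads, 68453851 to 82789893 per library, were tested with edgeR 4.0.16 (R 4.3.3): filterByExpr, TMM (factors 0.983 to 1.02), quasi-likelihood F test, genotype as the sole term, Benjamini-Hochberg adjustment over 30975 genes, threshold 0.05. CPM values use the library total without TMM. SE and 95% interval come from the F statistic. For log2 differences, 0.1 CPM was added in the scans over genes. The fit was tested on simulated counts whose biological coefficient of variation followed the trend over genes, 0.148 to 0.160 at the salicinoid genes. Their own estimates were 0.250 to 0.292, so the simulation did not test the fit at their spread. Every pair of libraries differed beyond sampling noise (chi-square per gene at least 42.2). Same-numbered libraries deviated together (correlation 0.27 over genes), but no label ties the numbers to a shared origin. Named genes were the 3 genes, the 3 most alike to each, and on each list the gene with most reads and that with the smallest p. Genes and lists were chosen with earlier results of these data known. Lists that needed an annotation, marker lists included, could not be filled, and no sequence is shown. Alternatives were RLE, library size alone, no filter, a mean of at least 5 CPM, unique reads, DESeq2 1.42.0, a replicate block and leaving out each library.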

Additional observations from a re-analysis of the deposited data

How the results depend on the processing

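None of the 3 genes was called under any of the 11 alternatives. With all 4 libraries kept, the log2 fold change stayed between 0.12 and 0.30 for UGT71L1, 0.18 and 0.31 for BEBT, and 0.51 and 0.64 for SABT. The upper ends come from the replicate block, with 0.30, 0.31 and 0.64 (edgeR adjusted p = 1.00, 1.00 and 0.467). The unadjusted edgeR p with the block was 0.202 for UGT71L1, 0.168 for BEBT and 0.0104 for SABT. In that fit 5.03% of all genes fell under 0.05 before adjustment. Leaving out single libraries gave -0.42 to 1.04 for UGT71L1, -0.28 to 0.91 for BEBT and 0.02 to 1.29 for SABT. When wild-type replicate 2 was left out, UGT71L1 and BEBT turned negative, and the cause was not tested.

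The log2 ratio difference of UGT71L1 over BEBT ran from -0.14 to 0.13, that of UGT71L1 over SABT from -0.67 to 0.0020, and that of BEBT over SABT from -0.55 to -0.10 on leaving out 1 library at a time. Over all genes, the count of calls was 1, against 14 with DESeq2, 120 with the replicate block, 0 in unique reads and 0 with a mean of at least 5 CPM, where 768 and 389 genes had an unadjusted p under 0.05 in edgeR. It was 0 to 8 on leaving out 1 library: 8 for wild-type replicate 1, and 0 for each MIR15 library (882 genes without replicate 1 and 1351 without replicate 2 had an unadjusted p under 0.05 in edgeR). Depth was not varied; the salicinoid genes had 1566 to 63897 reads per library.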
